A study of Mus musculus with 12 samples.

Results

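The genes described here encode integrin chains of white blood cells: the alpha chains CD103 (Itgae), CD11a (Itgal), CD11b (Itgam), CD11c (Itgax), CD11d (Itgad), CD49d (Itga4) and CD51 (Itgav), and the beta chains CD18 (Itgb2), beta 7 (Itgb7) and CD29 (Itgb1). They were taken by name, 10 of the 53801 gene identifiers in the count files, and all 10 were among the 20580 genes tested. RNA-seq was done on dendritic cells (DCs) of the mouse small intestine, sorted as CD45+CD64-CD11c+MHC-II+ cells into a CD103+CD11b- and a CD103-CD11b+ subset. Each subset came from wild-type (WT) mice and from CbfbF/F:CD11c-Cre mice, called Cbfb-cKO, with 3 libraries in each of the 4 groups from 3 different mice. In Cbfb-cKO mice a Cre recombinase under the CD11c promoter removes Cbfb, the shared partner subunit of the Runx transcription factors, in cells that use that promoter. All mice were of a mixed background, and the labels give no age and no treatment. Whether the WT mice of the RNA-seq carried Cre is not given in the sources used here, and neither is the sex.

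An integrin is a pair of 1 alpha and 1 beta chain at the cell surface, and the pair decides which ligand is held. Itgb2 pairs with the 4 CD11 chains and makes the receptors for ICAMs, complement fragment iC3b and fibrinogen that leukocytes use to arrest, to touch other cells and to take up coated particles. Itgb7 pairs with Itgae to bind E-cadherin on epithelium and with Itga4 to bind MAdCAM-1 on gut vessels, while Itgb1 pairs with Itga4 to bind VCAM-1 and fibronectin. Itgav joins several beta chains, among them beta 8, which on intestinal DCs releases active TGF-beta. CD103 and CD11b are the surface markers by which intestinal DCs are divided, CD103+CD11b- cells being mostly type 1 conventional DCs (cDC1s), and CD11c marks DCs in general.

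The libraries held 2161929 to 5863484 counts on genes, and all values below are CPM, counts scaled to the library total and by TMM factors, unless a length is named. Each integrin gene had at least 14 counts in every library. The sort could be read in the RNA: the sum of 8 cDC1 markers was 4591 to 7996 CPM in the 6 CD103+CD11b- libraries and 2034 to 3616 CPM in the 6 CD103-CD11b+ libraries, and the sum of 8 type 2 conventional DC (cDC2) markers was 184 to 709 against 1166 to 1901 CPM. The count of the targeted gene did not separate the genotypes. Cbfb was at 199, 216 and 228 CPM in WT and 215, 221 and 290 CPM in Cbfb-cKO CD103+CD11b- DCs, and at 161, 184 and 217 CPM in WT and 170, 180 and 273 CPM in Cbfb-cKO CD103-CD11b+ DCs. These are counts over the whole gene and not over the deleted part, and so they check nothing about the genotype labels. In sorted cell pools, a lower value can come from fewer cells that carry an RNA or from less of it per cell, and these cannot be told apart.

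Levels of different genes were compared as CPM per kilobase of annotated exon. In WT CD103+CD11b- DCs the order began with Itgae at 167 ± 31.0 CPM per kb (SD, n = 3), followed by Itgax at 145 ± 34.5, Itgb2 at 139 ± 29.6 and Itgb7 at 116 ± 17.7, and each of these neighbours overlapped the next. Itgb1 at 73.8 and Itga4 at 70.3 CPM per kb overlapped each other and stood below Itgb7 in every library. Itgal at 28.1 and Itgav at 18.1 CPM per kb came next, Itgad was at 4.03 and Itgam was lowest at 0.861 CPM per kb, below Itgad in every library. In WT CD103-CD11b+ DCs Itgax led at 144 CPM per kb, Itgae was at 41.4, Itgam at 18, and Itgad was lowest at 1.61 CPM per kb with no overlap with its neighbour Itgav. In Cbfb-cKO CD103-CD11b+ DCs this order had moved at its lower end. Itgad was at 38.1 CPM per kb and Itgam at 32.6, with overlapping ranges, and Itgae was last at 11 CPM per kb. Itgax, Itgb2, Itgb7, Itga4 and Itgb1 stood above these, and each overlapped the next. The place of Itgam turned with the length used, since another gene shares most of its exon bases. Per kilobase of exon that no other gene shares, a length chosen after seeing the data, Itgam was at 57.5 in WT CD103-CD11b+ DCs, above Itgae at 41.4. On the same lengths it was at 104 in Cbfb-cKO CD103-CD11b+ DCs, the 4th of the 10, above Itga4 at 83.7 and Itgb1 at 71.2, with Itgad the 7th at 47.5.

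**Figure D1:**
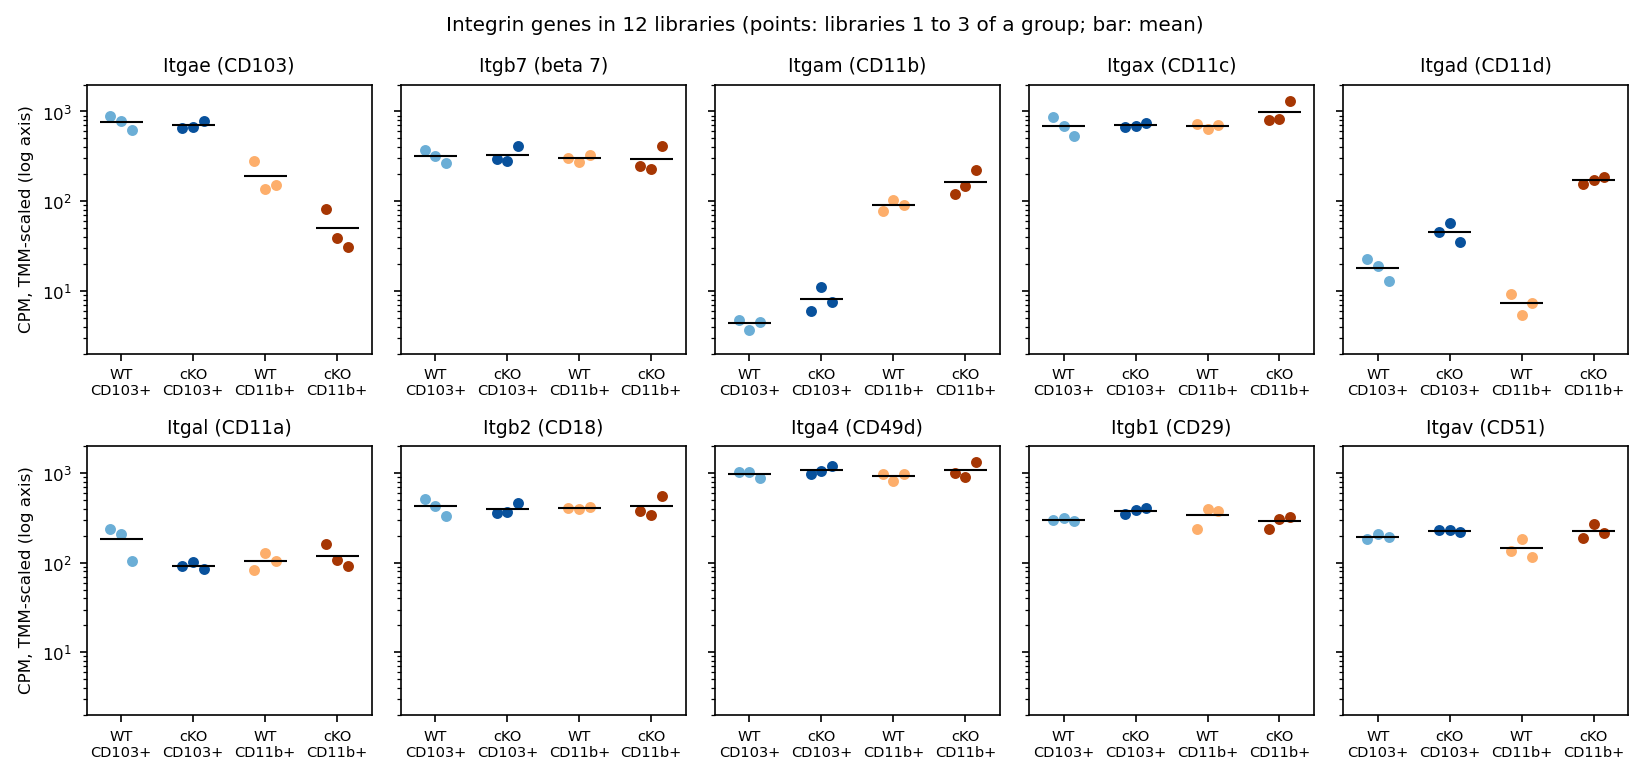
CPM of the 10 integrin genes on a log axis in the 4 groups (CD103+ stands for CD103+CD11b-, CD11b+ for CD103-CD11b+). Points are libraries 1 to 3 of a group from left to right and bars are means. Itgad changes its order between groups, while the means of Itgb7, Itgb2 and Itga4 lie close together.

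The comparison of Cbfb-cKO with WT asked which genes differ when Runx factors lose their partner in a subset. A gene was called at an adjusted p under 0.05 (edgeR quasi-likelihood test, Benjamini-Hochberg over all genes tested) with a fold change over 1.3. Of the 10 integrin genes, 1 was called higher and 0 lower in CD103+CD11b- DCs, where 0.224% of all genes tested were called higher and 0.797% lower, and 3 of 10 had an unadjusted p under 0.05, as had 10.5% of all genes tested. In CD103-CD11b+ DCs 1 was called higher and 1 lower, where 1.11% of all genes tested were called higher and 0.5% lower, and 5 of 10 had an unadjusted p under 0.05, as had 17.4% of all genes tested. Across the 10 genes the log2 fold change had a median of 0.08 and 0.22 in these subsets, beside medians of -0.02 and -0.06 over all genes tested. Libraries of the genotypes did not overlap for 5 of the 10 genes in CD103+CD11b- DCs (18.1% of all genes tested) and for 5 of 10 in CD103-CD11b+ DCs (20.1%).

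**Figure D2:**
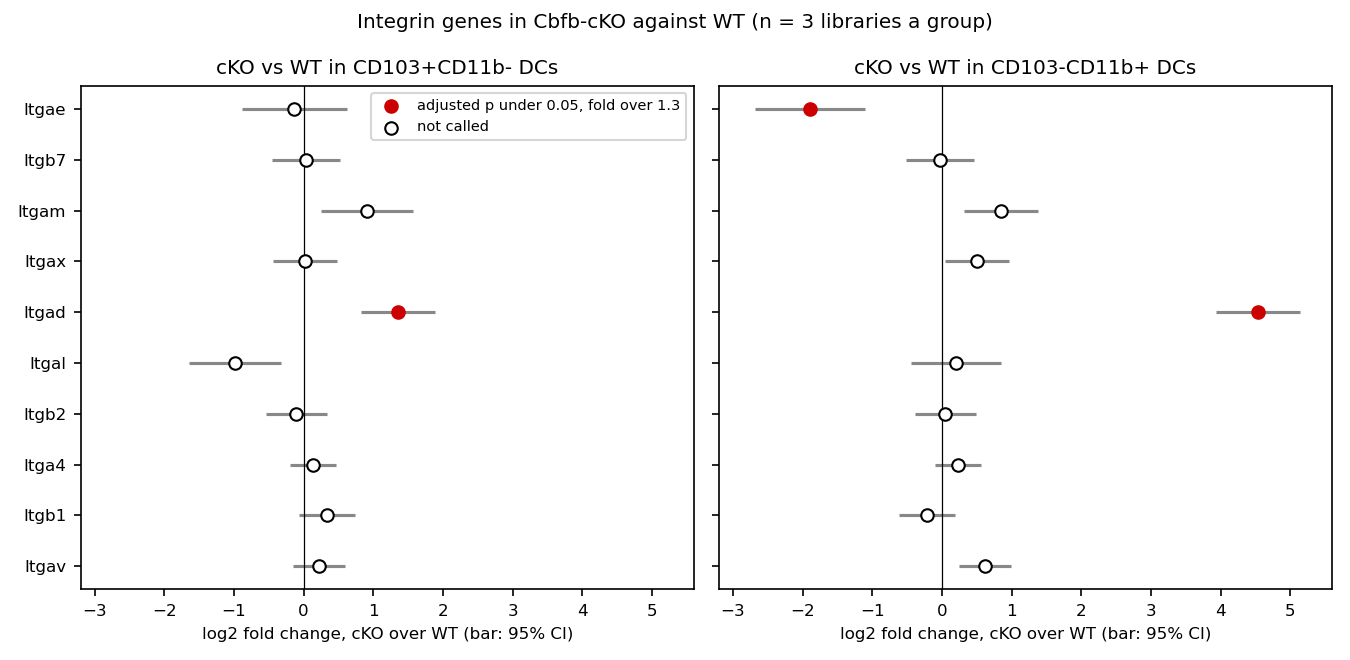
Log2 fold change of Cbfb-cKO over WT for each integrin gene, in CD103+CD11b- DCs (left) and CD103-CD11b+ DCs (right); bars are 95% confidence intervals of the fit and filled points are called. Itgad is called in both panels and Itgae in the right panel, and the intervals of Itgb7, Itgb2 and Itga4 hold 0 in both.

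Itgad, the CD11d chain, had the largest log2 fold change between genotypes of the 10 genes in both subsets. CD11d pairs with CD18, binds VCAM-1, and is best known from splenic red pulp macrophages and foam cells. In CD103-CD11b+ DCs its level was 9.20, 5.33 and 7.27 CPM in the WT libraries and 157, 172 and 187 CPM in the Cbfb-cKO libraries. The lowest Cbfb-cKO library was thus far above the highest WT library. The log2 fold change was 4.54 ± 0.27 (SE, 95% confidence interval 3.93 to 5.14), a 23.2-fold difference, with an edgeR adjusted p of 7.9e-05. Among CD103+CD11b- DCs Itgad was at 22.6, 19.0 and 12.9 CPM in WT and at 45.5, 56.6 and 35.2 CPM in Cbfb-cKO libraries, again without overlap. There the log2 fold change was 1.35 ± 0.24 (SE, 95% confidence interval 0.82 to 1.89; edgeR adjusted p = 0.0304). This second call was near its threshold: it was lost when only the 6 CD103+CD11b- libraries were fitted (adjusted p = 0.0586) and when WT CD103+CD11b- replicate 1 (0.0691), 2 (0.111) or 3 (0.0538), Cbfb-cKO CD103+CD11b- replicate 1 (0.109) or 2 (0.110), or Cbfb-cKO CD103-CD11b+ replicate 1 (0.0525) or 2 (0.0504) was left out.

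The difference in Itgad between genotypes was larger in CD103-CD11b+ DCs, by 3.19 ± 0.35 on the log2 scale (SE, edgeR adjusted p = 0.00685), in a contrast that called 0.651% of all genes tested. Of the integrin genes, Itgad alone was called in it. The order of the subsets turned between genotypes. In WT mice Itgad was lower in CD103-CD11b+ than in CD103+CD11b- DCs (log2 fold change -1.28 ± 0.26, edgeR adjusted p = 0.00916; 7% of all genes tested were called lower), and in Cbfb-cKO mice it was higher (1.90 ± 0.24, adjusted p = 0.000328; 9.26% were called higher). In neither genotype did the subsets overlap. These 3 calls held under every alternative run, with an adjusted p of at most 0.0463.

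Itgad and Itgax are close copies, which bears on how well their reads can be told apart. Both lie on the forward strand of chromosome 7 (GRCm38), Itgax at chr7:128129547-128150657 and Itgad at chr7:128154376-128223816, next to Itgam at chr7:128062640-128118491. Their coding sequences were identical at 73.7% of 3446 aligned bases, against 65.8% for Itgam and Itgad and 58.3% for Itgal and Itgad. The longest identical run between Itgax and Itgad spanned 188 bases, and 384 of the 4555 50-base words of Itgad exons (8.43%) were also in Itgax. The stretch around this run is shown for both genes, from 3 exons of each (GENCODE M21 annotation, Itgax from chr7:128135572 to 128136102, Itgad from chr7:128189300 to 128189829), with the identical run in capitals:
Itgax: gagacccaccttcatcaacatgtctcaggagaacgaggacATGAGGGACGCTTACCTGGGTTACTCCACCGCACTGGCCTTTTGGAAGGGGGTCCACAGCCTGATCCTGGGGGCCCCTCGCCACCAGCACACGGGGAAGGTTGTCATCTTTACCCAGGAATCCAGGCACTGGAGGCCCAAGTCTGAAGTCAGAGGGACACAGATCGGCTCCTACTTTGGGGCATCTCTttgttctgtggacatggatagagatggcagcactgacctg
Itgad: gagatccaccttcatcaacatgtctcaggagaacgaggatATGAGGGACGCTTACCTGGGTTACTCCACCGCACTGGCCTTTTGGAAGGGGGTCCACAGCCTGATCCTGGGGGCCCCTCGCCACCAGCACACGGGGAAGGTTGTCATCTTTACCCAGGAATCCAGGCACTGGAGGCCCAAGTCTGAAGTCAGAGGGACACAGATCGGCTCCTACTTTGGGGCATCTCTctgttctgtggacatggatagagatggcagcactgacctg
A read inside the capitals maps to both genes, and the authors removed reads of low mapping quality. Per kilobase in CD103-CD11b+ DCs, Itgad stood at 0.0111 ± 0.0024 of Itgax in WT and at 0.195 ± 0.038 of it in Cbfb-cKO libraries (SD, n = 3).

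Of 4 tested genes inside Itgad on the opposite strand, 2 were also called higher in Cbfb-cKO CD103-CD11b+ DCs. Of 30 annotated genes within 200 kb of Itgad, 21 were tested, and in CD103-CD11b+ DCs 3 of the 21 were called higher and 0 lower in Cbfb-cKO (1.11% and 0.5% of all genes tested). These were Itgad, 4931431B13Rik and Gm39091, both of the latter lying antisense within Itgad. 4931431B13Rik, at chr7:128192050-128203328, was at 1.37, 1.0 and 2.04 CPM in WT and at 90.7, 111 and 117 CPM in Cbfb-cKO CD103-CD11b+ libraries. Its log2 fold change was 6.14 ± 0.57 (SE, edgeR adjusted p = 0.000795), and in CD103+CD11b- DCs it was 1.91 ± 0.46 (adjusted p = 0.093, not called). Gm39091 was at 0.873 to 2.35 CPM in WT and 7.14 to 9.43 CPM in Cbfb-cKO libraries. Cox6a2, a cytochrome c oxidase subunit also on the opposite strand inside Itgad, was at 0.333 to 1.45 against 7.38 to 15.9 CPM and was not called (adjusted p = 0.0607). Gm44850, the 4th of these genes, averaged 0.222 CPM in WT and 0.0793 CPM in Cbfb-cKO and was not called. The exons of 4931431B13Rik covered 8.6% of the exon bases of Itgad. Counting ignored strand, so reads from Itgad introns and from these genes cannot be told apart.

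**Figure D3:**
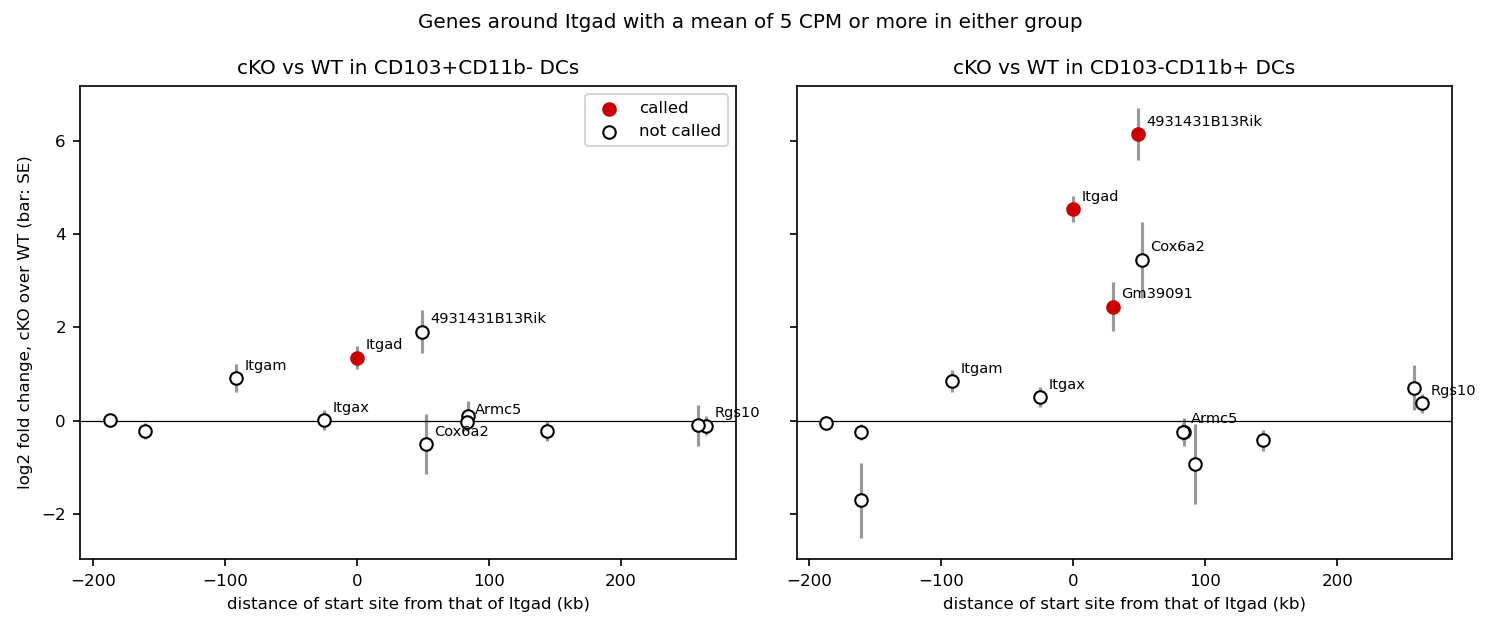
Log2 fold change of Cbfb-cKO over WT (bars: SE) against the distance of each gene's start site from that of Itgad in kb, in CD103+CD11b- DCs (left) and CD103-CD11b+ DCs (right). Genes with a mean of 5 CPM or more in either group are plotted. In the right panel Itgad and the genes inside it lie above the other genes plotted, which were not called and run from -1.71 (Gm45205) to 0.85 (Itgam).

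Neighbours outside Itgad were not called between genotypes. Itgax, whose start is 24.8 kb upstream, was at 721, 640 and 711 CPM in WT and 795, 826 and 1316 CPM in Cbfb-cKO CD103-CD11b+ libraries. The groups did not overlap, but the log2 fold change of 0.50 (95% confidence interval 0.04 to 0.96) had an edgeR adjusted p of 0.248. Armc5, at 55.7 CPM in WT and 47.1 CPM in Cbfb-cKO CD103-CD11b+ DCs, was not called in either subset.

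Itgae, the CD103 chain at chr11:73090583-73147446 that anchors cells to E-cadherin, was the gene of the 10 called lower in Cbfb-cKO. CD103 was a sort marker, so its level across the subsets describes the gates. In CD103+CD11b- DCs, sorted for surface CD103, Itgae was at 899, 785 and 616 CPM in WT and at 657, 664 and 776 CPM in Cbfb-cKO libraries. These overlapped, with a log2 fold change of -0.13 ± 0.34 (95% confidence interval -0.88 to 0.62; edgeR adjusted p = 0.98). In CD103-CD11b+ DCs, gated as negative for surface CD103, Itgae RNA was still at 281, 138 and 150 CPM in WT libraries. It was at 81.5, 39.3 and 30.6 CPM in Cbfb-cKO libraries, all below the lowest WT library. The log2 fold change was -1.89 ± 0.36 (SE, 95% confidence interval -2.69 to -1.10; edgeR adjusted p = 0.0301).

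The Itgae call was also near its threshold. It was lost with only the 6 CD103-CD11b+ libraries in the fit (adjusted p = 0.193) and without WT CD103+CD11b- replicate 2 (0.0596), WT CD103-CD11b+ replicate 1 (0.0529) or 3 (0.0545), Cbfb-cKO CD103+CD11b- replicate 1 (0.0539), or Cbfb-cKO CD103-CD11b+ replicate 2 (0.103) or 3 (0.0693). The difference of this change between the subsets was not called (difference -1.76 ± 0.49, edgeR adjusted p = 0.187), while DESeq2 called that difference (adjusted p = 0.0161). CD103 was a sort marker in both genotypes, and the purity of the sort was not analysed here. The 8 cDC1 markers summed to 2034 to 2600 CPM in WT and to 2046 to 3616 CPM in Cbfb-cKO CD103-CD11b+ libraries, most of it from Wdfy4, and the 7 others to 426 to 735 and 469 to 998.9 CPM. Xcr1, a receptor defining cDC1s, was at 18.2, 4.0 and 30.3 CPM in WT and at 42.4, 16.4 and 73.9 CPM in Cbfb-cKO. T cell markers, whose cells can carry CD103, were at 16.1 to 98.9 against 15.8 to 132 CPM in sum over 7 tested genes. The paper also reports a strong fall of CD103+CD11b+ cDC2s, which carry CD103, in the small intestine of Cbfb-cKO mice. Those cells were not among the subsets sequenced here. The part of any of these cells in the level of Itgae was not tested.

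**Figure D4:**
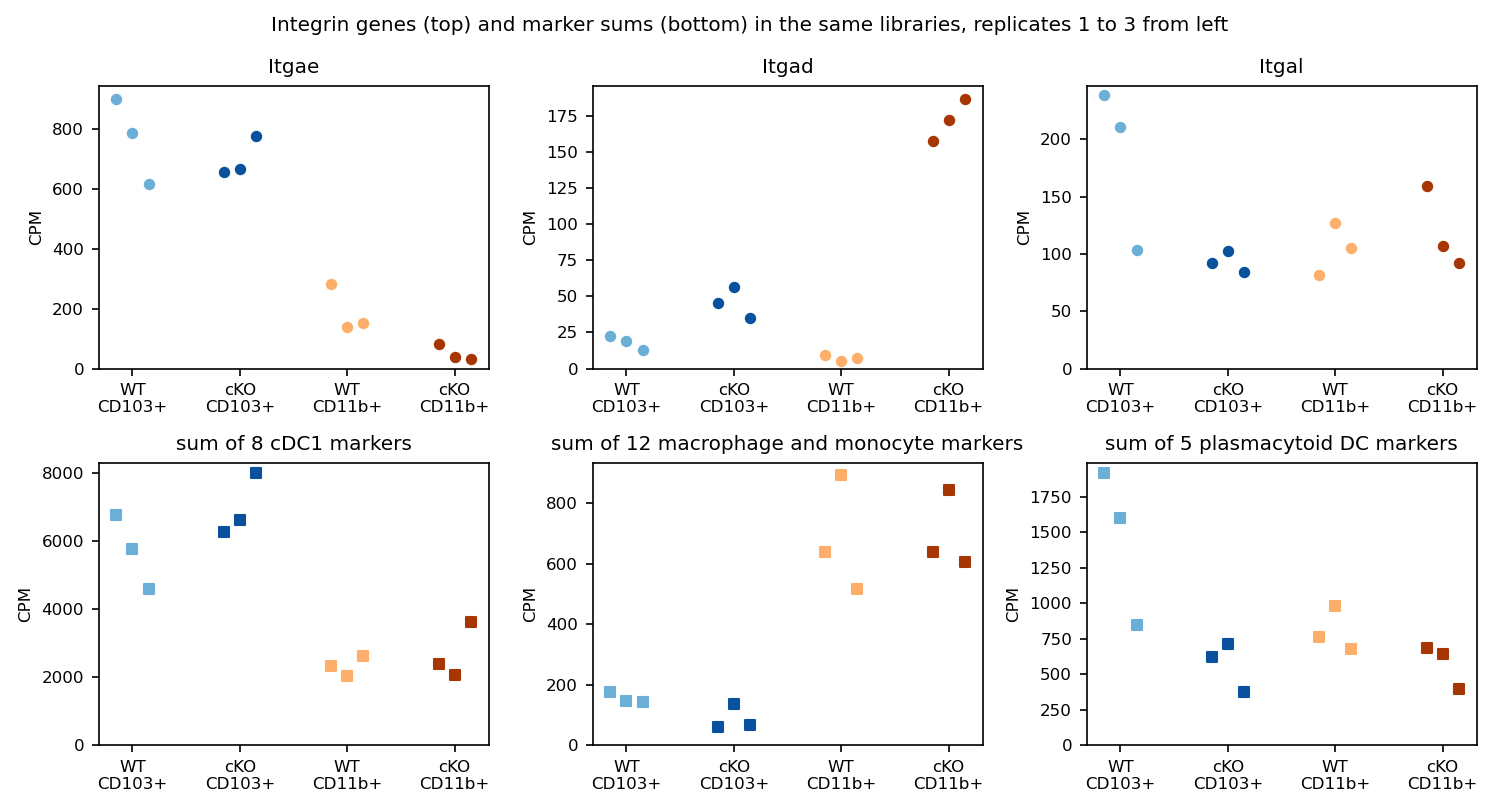
CPM of Itgae, Itgad and Itgal (top, circles) and the summed CPM of cDC1, macrophage and monocyte, and plasmacytoid DC markers (bottom, squares) in the same 12 libraries, replicates 1 to 3 of each group from left; every axis starts at 0. In CD103-CD11b+ DCs Itgae is lower and Itgad higher in Cbfb-cKO, and the cDC1 and macrophage sums overlap between genotypes; granulocyte markers, whose sums do not, are not plotted. In CD103+CD11b- DCs Itgal and the plasmacytoid DC markers are both highest in WT replicates 1 and 2.

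Haspin, a kinase gene within an Itgae intron on the opposite strand, shares no exon base with Itgae. It was at 133 to 173 CPM in WT CD103+CD11b- DCs, and at 19.2 to 50.7 in WT and 8.33 to 22.7 CPM in Cbfb-cKO CD103-CD11b+ DCs. Its log2 fold change between genotypes in that subset was -1.16 ± 0.40 (edgeR adjusted p = 0.171).

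Itgb7, the beta partner of CD103 and CD49d at chr15:102215995-102231944, was not called in any comparison. Its levels were 368, 322 and 270 CPM in WT and 293, 279 and 411 CPM in Cbfb-cKO CD103+CD11b- DCs, and 303, 277 and 324 CPM against 249, 230 and 410 CPM in CD103-CD11b+ DCs. The groups overlapped in each comparison, and the 95% confidence interval of the log2 fold change between genotypes ran from -0.46 to 0.53 in CD103+CD11b- and from -0.52 to 0.47 in CD103-CD11b+ DCs. Its partners together, Itgae plus Itga4 per kilobase, were 2.06 ± 0.05 times Itgb7 in WT and 1.97 ± 0.23 times in Cbfb-cKO CD103+CD11b- DCs (SD, n = 3). In CD103-CD11b+ DCs they were 0.985 ± 0.18 and 0.855 ± 0.16 times Itgb7. Itgae alone was 0.381 ± 0.16 times Itgb7 in WT and 0.115 ± 0.077 times in Cbfb-cKO CD103-CD11b+ DCs, with ranges of 0.280 to 0.561 and 0.0452 to 0.198 that did not overlap.

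Itgam, the CD11b chain of complement receptor 3, followed the gates on which the subsets were sorted. It was at 4.79, 3.66 and 4.53 CPM in WT and 5.99, 11 and 7.43 CPM in Cbfb-cKO CD103+CD11b- DCs. In CD103-CD11b+ DCs it was at 77.9, 104 and 89.6 CPM in WT and at 122, 147 and 222 CPM in Cbfb-cKO. In both subsets all Cbfb-cKO libraries lay above all WT libraries, with log2 fold changes of 0.92 ± 0.30 and 0.85 ± 0.24. Neither was called by edgeR (adjusted p = 0.239 and 0.105), and DESeq2 called the one in CD103-CD11b+ DCs (adjusted p = 0.0396). The annotated gene Gm49368 on the same strand covers 68.7% of the exon bases of Itgam, 3450 of 5024, and reads there count for neither gene, so the level of Itgam is understated against other genes.

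RefSeq promoter windows (GRCm38.p6) were at hand for 6 of the 10 genes: Itgam, Itgax, Itga4, Itgav, Itgb1 and Itgb7. In the 250 bases before the start, the Runx core (TGTGGT or TGCGGT, either strand) was found in Itga4 alone of these 6, where 18.6% of all 32851 windows hold it. The core bound by PU.1, a myeloid factor (GAGGAA, either strand), was found in Itgam, Itgb1 and Itgav and is held by 23.3% of all windows. The windows of Itgam (chr7:128062390-128062639, forward strand) and Itgax (chr7:128129300-128129549, forward strand) are shown. Itgam encodes the sort marker CD11b, and Itgax encodes CD11c, by which both subsets were gated and whose promoter drives the Cre. The gates fixed how these genes differ between the subsets, so nothing about the motif is read from that difference. Capitals mark the PU.1 core:
Itgam: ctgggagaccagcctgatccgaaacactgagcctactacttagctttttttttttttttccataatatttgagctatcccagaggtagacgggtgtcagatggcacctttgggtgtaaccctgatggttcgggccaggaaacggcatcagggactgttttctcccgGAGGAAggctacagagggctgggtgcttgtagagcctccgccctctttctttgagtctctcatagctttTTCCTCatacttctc
Itgax: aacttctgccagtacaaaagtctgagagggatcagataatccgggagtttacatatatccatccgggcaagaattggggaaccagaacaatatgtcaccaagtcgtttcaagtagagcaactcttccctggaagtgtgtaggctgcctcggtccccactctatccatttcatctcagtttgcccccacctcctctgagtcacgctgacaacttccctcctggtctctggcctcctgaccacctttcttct
A match of letters is a description and not a binding site.

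Itgax, the CD11c chain used to gate both subsets, was at 867, 684 and 536 CPM in WT and 666, 690 and 753 CPM in Cbfb-cKO CD103+CD11b- DCs. Its log2 fold change between genotypes there was 0.02 ± 0.21, and between subsets in WT -0.01 ± 0.21 (95% confidence interval -0.47 to 0.45). Itgb2, the beta chain of all CD11 integrins at chr10:77530252-77565708, ranged from 336 to 551 CPM over the 12 libraries, and its log2 fold change between genotypes was -0.11 ± 0.20 and 0.05 ± 0.20 in the CD103+CD11b- and CD103-CD11b+ subsets.

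The makeup of the CD11 family was compared between the groups. Per kilobase, Itgax made up 81.8 ± 2.9% of the sum of Itgal, Itgam, Itgax and Itgad in WT CD103+CD11b- and 80.1 ± 3.5% in WT CD103-CD11b+ DCs (SD, n = 3). In Cbfb-cKO CD103-CD11b+ DCs it made up 69.0 ± 3.7%. Itgad made up 0.896 ± 0.23% of the sum in WT CD103-CD11b+ libraries and 13.3 ± 2.0% in Cbfb-cKO, and 2.26 ± 0.08% and 5.91 ± 1.4% in CD103+CD11b- DCs. Itgal made up 15.4 ± 3.0% in WT and 8.22 ± 0.92% in Cbfb-cKO CD103+CD11b- DCs, without overlap (12.03 to 17.9% and 7.19 to 8.95%), and 8.91 ± 2.1% and 6.64 ± 3.0% in CD103-CD11b+ DCs, which overlapped. Itgam made up 10.1 ± 1.7% in WT and 11 ± 1.1% in Cbfb-cKO CD103-CD11b+ DCs, or 26.2 ± 3.6% and 27.5 ± 2.4% when its length is taken as the exon bases no other gene shares. The 4 alpha chains together were 1.34 ± 0.01 times Itgb2 in WT CD103-CD11b+ DCs and 2.12 ± 0.14 times in Cbfb-cKO, without overlap (1.32 to 1.34 and 2.0 to 2.27). This ratio was 1.27 ± 0.06 in WT and 1.35 ± 0.15 in Cbfb-cKO CD103+CD11b- DCs. These ratios are of RNA and say nothing about chains at the surface.

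**Figure D5:**
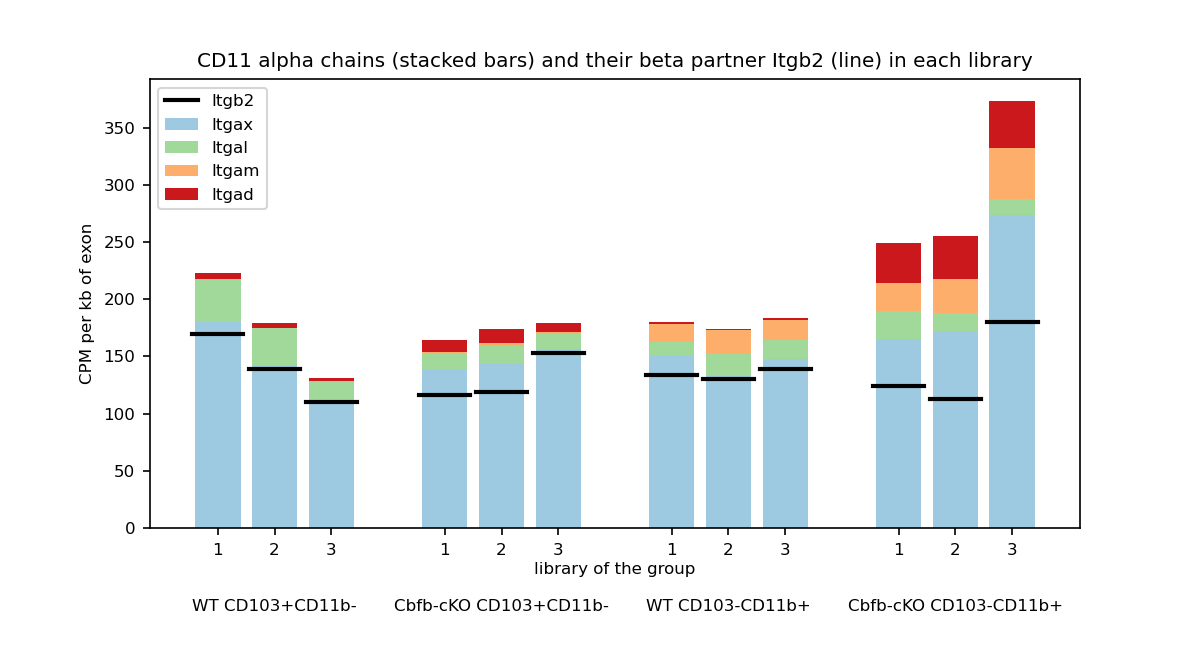
CPM per kb of exon of the 4 CD11 alpha chains, stacked, in each of the 12 libraries, with the level of Itgb2 in the same library as a black line. In Cbfb-cKO CD103-CD11b+ libraries the Itgad block is visible and the stack rises well above the Itgb2 line, and in WT CD103-CD11b+ libraries Itgad is a thin rim.

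Itgal, the CD11a chain of LFA-1 at chr7:127296260-127335138, which holds ICAM-1 in the contact of DC and T cell, was at 239, 211 and 104 CPM in WT and at 91.7, 102 and 84.5 CPM in Cbfb-cKO CD103+CD11b- DCs. WT replicate 3 lay just above the highest Cbfb-cKO library. The log2 fold change was -0.99 ± 0.30 and not called (edgeR adjusted p = 0.188), and without WT CD103+CD11b- replicate 3 it was -1.27 with an adjusted p of 0.0303. Plasmacytoid DC markers moved with it: 5 of 5 had counts in each of these libraries, and their sum was 1914, 1598 and 846 CPM in WT and 617, 709 and 372 CPM in Cbfb-cKO. Siglech, a receptor of plasmacytoid DCs, was at 464, 358 and 160 CPM in WT and at 110, 150 and 18 CPM in Cbfb-cKO. T cell markers summed to 207, 162 and 101 CPM in WT and 54.8, 57.1 and 36.4 CPM in Cbfb-cKO CD103+CD11b- libraries. Their part in the level of Itgal was not tested. In CD103-CD11b+ DCs Itgal was at 82.0, 127 and 105 CPM in WT and 160, 107 and 92.3 CPM in Cbfb-cKO, which overlapped.

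Itga4, the CD49d chain at chr2:79255426-79333123, had the highest mean CPM of the 10 genes in every group and was not called in any comparison. Its annotated exons are the longest of the 10, and per kilobase it ranked 6 in both CD103+CD11b- groups. In CD103-CD11b+ DCs it ranked 5 in WT and 4 in Cbfb-cKO per kilobase. It ranged from 818 to 1036 CPM in the 6 WT and from 909 to 1312 CPM in the 6 Cbfb-cKO libraries, with log2 fold changes of 0.13 ± 0.15 in CD103+CD11b- and 0.23 ± 0.15 in CD103-CD11b+ DCs (95% confidence intervals -0.20 to 0.46 and -0.10 to 0.56). Itgb1, at chr8:128685654-128733200, was at 302, 311 and 290 CPM in WT and 349, 383 and 411 CPM in Cbfb-cKO CD103+CD11b- DCs, which did not overlap but were not called (log2 fold change 0.34 ± 0.18, edgeR adjusted p = 0.604). In CD103-CD11b+ DCs it was at 237, 399 and 376 CPM against 239, 309 and 324 CPM, which overlapped.

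Itgav, the CD51 chain at chr2:83724397-83806916, was higher in every Cbfb-cKO library than in every WT library of the same subset. It was at 185, 207 and 191 CPM in WT and 229, 230 and 222 CPM in Cbfb-cKO CD103+CD11b- DCs, and at 136, 186 and 117 CPM against 189, 269 and 216 CPM in CD103-CD11b+ DCs. The log2 fold changes were 0.22 ± 0.17 and 0.62 ± 0.17 (edgeR adjusted p = 0.776 and 0.0951), so neither was called. DESeq2 called the second (adjusted p = 0.0191), as did edgeR without WT CD103-CD11b+ replicate 2 (log2 fold change 0.83, adjusted p = 0.0396).

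Between the subsets, 3 of the 10 genes were called in WT and 3 in Cbfb-cKO mice, where 18.8% and 16.1% of all genes tested were called. In each genotype these were Itgae and Itgam, which the sort fixed, and Itgad. Among the rest, Itgal was lower in WT CD103-CD11b+ than in CD103+CD11b- DCs by a log2 fold change of -0.82 ± 0.30 that was not called (edgeR adjusted p = 0.0771; -1.17 and 0.00831 without WT CD103+CD11b- replicate 3). For Itgb7, Itgb2 and Itga4 the 95% confidence intervals of the subset difference in WT lay between -0.58 and 0.40. In Cbfb-cKO mice Itgax did not overlap between the subsets (795 to 1316 CPM in CD103-CD11b+, 666 to 753 CPM in CD103+CD11b-), with a log2 fold change of 0.48 ± 0.21 (adjusted p = 0.143).

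Macrophage and granulocyte genes were set beside Itgad, since CD11d and CD11b are also carried by those cells. The 12 macrophage and monocyte markers summed to 515 to 892 CPM in WT and 605 to 843 CPM in Cbfb-cKO CD103-CD11b+ libraries, with counts for 12 of 12 in each. Among them Adgre1, the F4/80 antigen, rose from 50.1, 76.0 and 29.7 to 140, 237 and 215 CPM (log2 fold change 1.93 ± 0.38, edgeR adjusted p = 0.0336). It was the only 1 of the 12 called. The log2 fold change was above 0 for 4 of the 12, with a median of -0.28, beside -0.06 over all genes tested. Without overlap, 1 of the 12 was higher and 2 were lower (20.1% of all genes tested in either direction). C1qa, a complement gene of macrophages, was at 28.4, 37.7 and 14.8 CPM in WT and 25.4, 34.7 and 14.8 CPM in Cbfb-cKO, and Fcgr1, which encodes the excluded CD64, at 4.95 to 11.7 and 5.39 to 8.33 CPM. The 6 tested of 8 neutrophil and eosinophil markers summed to 55.6 to 76.3 CPM in WT and 128 to 199 CPM in Cbfb-cKO, with Ly6g and Epx, which define neutrophils and eosinophils, at 0 in 2 or more libraries of each of these groups. Most of this sum came from Csf3r, the receptor for G-CSF, which was called higher at 42.3, 39.3 and 36.4 CPM in WT and 84.6, 134 and 101 CPM in Cbfb-cKO (log2 fold change 1.44 ± 0.29, edgeR adjusted p = 0.0353). Siglecf, a receptor of eosinophils, was at 9.60 to 19.99 against 24.3 to 40.7 CPM and Cxcr2, a chemokine receptor of neutrophils, at 4.0 to 7.44 against 11.5 to 16.2 CPM; both were without overlap and not called (adjusted p = 0.183 and 0.320). S100a8, S100a9 and Ccr3 overlapped between the genotypes. B cell markers were at 16.0 to 93.6 against 72.4 to 433 CPM in sum over 7 genes. Epithelial markers were at 99.3 to 146 against 104 to 148 CPM over 8, sums that hide changes in both directions. Only 2 of the 8 had a log2 fold change above 0, with a median of -1.165, beside -0.06 over all genes tested. Without overlap, 4 of the 8 were lower and 1 was higher (20.1% of all genes tested in either direction). By edgeR 1 was called higher and 0 lower (1.11% and 0.5% of all genes tested). The part of these genes in the level of Itgad was not tested. Among CD103+CD11b- libraries the cDC2 markers summed to 184 to 287 CPM in Cbfb-cKO and 529 to 709 CPM in WT, and the macrophage markers to 59.0 to 137 against 143 to 175 CPM. The granulocyte markers summed to 14.5 to 39.8 CPM in Cbfb-cKO and 11.5 to 14.4 CPM in WT CD103+CD11b- libraries, without overlap. The part of these cells in the level of Itgad in that subset was not tested.

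Other genes of integrin function were described from lists. Of 16 other integrin chains, 0 were called in CD103+CD11b- DCs by edgeR, with 1 at an unadjusted p under 0.05 (10.5% of all genes tested). In CD103-CD11b+ DCs 1 was called lower (0.5% of all genes tested), with 7 at an unadjusted p under 0.05 (17.4%). This was Itga5, the alpha chain of the fibronectin receptor, at 166, 202 and 248 CPM in WT and 94.1, 120 and 93.3 CPM in Cbfb-cKO libraries, a log2 fold change of -1.0 ± 0.15 (adjusted p = 0.0114). The median of these 16 chains in that subset was -1.16, beside -0.06 over all genes tested, and 14 of 16 were at or below 0, as were 55.2% of all genes tested. Several were at their highest in WT CD103-CD11b+ libraries: Itgb4, of epithelial hemidesmosomes, averaged 182 CPM in WT and 29.3 CPM in Cbfb-cKO and was not called (adjusted p = 0.244). Genes of the extracellular matrix from the list of integrin ligands are set beside these chains, after their values were seen. Fn1, which encodes fibronectin, was at 284, 1056 and 772 CPM in WT and 129, 537 and 156 CPM in Cbfb-cKO CD103-CD11b+ libraries, and Col4a1, a chain of basement membrane collagen, at 547, 1515 and 391 against 507, 671 and 41.8 CPM. Lama5, a laminin chain, was at 121, 500.1 and 404 against 117, 422 and 20.4 CPM, and Tnc, which encodes tenascin C, at 18.4, 124 and 141 against 50.3, 241 and 11.7 CPM. The genotypes overlapped for each of these 4 genes and none was called. Cbfb-cKO replicate 3 was the lowest of the 6 for Col4a1, Lama5 and Tnc, as it was for Itgb4 at 5.61, Itga1 at 31.1 and Itga6 at 18.9 CPM. The part of cells that make matrix in the level of these chains was not tested. Of 32 genes of integrin activation and linkage to the cytoskeleton, 0 were called in either subset by edgeR, with 5 and 11 at an unadjusted p under 0.05 (10.5% and 17.4% of all genes tested). Fyb, an adaptor for inside-out activation of integrins, was called in the difference between the subsets at 2.03 ± 0.36 (adjusted p = 0.0369). It was at 212, 206 and 114 CPM in WT and 101, 109 and 62.2 CPM in Cbfb-cKO CD103+CD11b- DCs, and at 137, 109 and 102 CPM in WT and 235, 263 and 234 CPM in Cbfb-cKO CD103-CD11b+ DCs. Of 20 integrin ligand genes 16 were tested and 0 were called between genotypes in either subset by edgeR, with 2 and 4 of 16 at an unadjusted p under 0.05, beside the same shares of all genes.

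Among the 5 genes whose pattern was most like that of Itgad over the 12 libraries, by Pearson's r of log2 CPM among 12645 genes with a mean of at least 5 CPM, were 4931431B13Rik (r = 0.988), Dcstamp (0.953), Smg1 (0.946) and Hap1 (0.938). Dcstamp, a fusion receptor of osteoclasts and DCs, averaged 14.5 CPM in WT and 75.0 CPM in Cbfb-cKO CD103-CD11b+ DCs. Smg1 is a kinase of nonsense-mediated RNA decay and Hap1 a partner of huntingtin. By Spearman's rho, 4 of the 5 genes most like Itgad and 0 of the 5 most like Itgae were the same. By Pearson's r the genes most like Itgae were Ipo13 (r = 0.976), Pianp (0.974), Haspin (0.971), Gm36723 (0.966) and Net1 (0.965). Ipo13 is a nuclear transport receptor and Net1 an activator of RhoA. Pianp, a ligand of PILR-alpha, averaged 107 and 109 CPM in WT and Cbfb-cKO CD103+CD11b- DCs, and 23.0 and 4.56 CPM in CD103-CD11b+ DCs. The 12 points of each gene come from the same libraries and share their depth and sort.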

How the data were processed

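RNA from small pools of sorted intestinal DCs was sequenced by a RamDA-seq protocol for total RNA. The deposited files hold raw read counts per Ensembl gene, which the authors made by trimming with Trim Galore, mapping to mm10 with STAR 2.7, removing reads of low mapping quality and duplicates, and counting with htseq-count without strand against a GRCm38 annotation. Of 53801 identifiers, 53706 matched GENCODE M21 (GRCm38), which gave names, positions and lengths. Rows outside genes were left out: 59.7% to 66.1% of reads were assigned to no feature and 1.21% to 1.52% were ambiguous.

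Counts were scaled by TMM and fitted with edgeR 4.0.16 (R 4.3.3), quasi-likelihood F-test, in 1 model of the 4 groups, for the 20580 genes with at least 5 counts in at least 1 of the 12 samples. P-values were adjusted by Benjamini-Hochberg over all genes tested. A gene was called at an adjusted p under 0.05 and a fold change over 1.3. SE is the log2 fold change divided by the root of F. DESeq2 1.42.0, other filters and scalings, the 6 samples compared, replicate blocks and leaving out each sample were alternatives. Levels between genes are TMM-scaled CPM per kb of exon, and 3 counts equal 0.485 to 1.53 CPM. P-values and intervals rest on the spread between samples of the same group, estimated in common over the 4 groups with information shared across genes. The 3 samples of a group came from 3 mice.

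Samples were grouped by their labels. Replicate numbers were taken to pair samples only where every same-number correlation of deviations from the group means exceeded 0.1. This held for the subsets within Cbfb-cKO (0.112 to 0.353) and not for the other comparisons that were tested (lowest -0.0911). It also held between Cbfb-cKO CD103+CD11b- and WT CD103-CD11b+ samples (0.124 to 0.217), which came from mice of different genotypes. Passing the rule therefore does not show that samples share a mouse. What a shared number marks is not given in the labels. In simulated counts for the Cbfb-cKO comparison in CD103-CD11b+ DCs, 65% of genes changed 5-fold and 15.5% of genes changed 2-fold were recovered.

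The integrin genes were taken by name, and they, the lists of other genes and the markers were chosen with earlier results of these data known. Genes of the other lists were named where called between genotypes or in the difference of that effect, with markers added to describe the libraries; the genes inside Itgad and Haspin were named as overlapping or within 200 kb (not every gene that these rules name is reported here), Itgb4 and some neighbours after their values were seen. Sequences are from GENCODE M21 coordinates and RefSeq promoter windows (GRCm38.p6), searched with Python 3.11.15.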

Additional observations from a re-analysis of the deposited data

Results flagged for a closer look

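The effect of Cbfb-cKO on Itgad differed between the subsets by 3.19 on the log2 scale (edgeR interaction contrast, adjusted p = 0.00685): it was 4.54 in CD103-CD11b+ and 1.35 in CD103+CD11b- DCs, with all 3 Cbfb-cKO libraries above all 3 WT libraries in each. The effect on Fyb differed by 2.03 (adjusted p = 0.0369): it was 1.07 in CD103-CD11b+ DCs, where all Cbfb-cKO libraries were higher, and -0.96 in CD103+CD11b- DCs, where all were lower.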

How the results depend on the processing

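Of 1120 values of the 10 genes under the alternatives, 1036 kept their direction and their side of the threshold, 56 that were not called changed sign and stayed uncalled, 17 lost a call, 11 gained one, and no called value changed sign. Itgad in CD103-CD11b+ DCs stayed at a log2 fold change of 4.38 to 4.78 and its difference between the subsets at 3.01 to 3.42 without any 1 sample. In CD103+CD11b- DCs the number of integrin genes called between genotypes was 1, and 0 with only the 6 samples compared or at an adjusted p under 0.01; without 1 sample it was 0 to 1. In CD103-CD11b+ DCs it was 2, and 4 by DESeq2, 1 with only the 6 samples compared and 1 at an adjusted p under 0.01; without 1 sample it was 1 to 3. DESeq2 called 2 integrin genes in the difference between the subsets, where edgeR called 1. The causes were not tested.

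Counts over all genes moved more. In CD103+CD11b- DCs 210 genes were called, and 320 with no filter, 655 by DESeq2, 522 with a replicate block, 41 at an adjusted p under 0.01 and 46 to 136 without some samples. In CD103-CD11b+ DCs 331 were called, and 573 with at least 5 counts in every sample, 1136 by DESeq2, 849 with a replicate block, 27 with only the 6 samples compared, 71 at an adjusted p under 0.01 and 121 to 517 without some samples. The difference between the subsets called 134, and 205 with no filter, 502 by DESeq2, 330 or 328 with a replicate block over all samples or within genotype, 19 at an adjusted p under 0.01 and 29 to 210 without some samples. Between subsets 3860 genes were called in WT and 3307 in Cbfb-cKO, and 1115 and 1636 at an adjusted p under 0.01; without some samples these were as low as 1410 and 2124.

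With the replicate number as a block, edgeR called Itgav between genotypes in CD103-CD11b+ DCs (log2 fold change 0.62, adjusted p = 0.0335). Itgav was also called between subsets in WT (-0.43, edgeR adjusted p = 0.0397, and -0.43, 0.0487 with the block within genotype). In these comparisons the replicate numbers did not pass the rule for pairing. The block changed no other call of the 10 genes. Itgb1 was called between the subsets of Cbfb-cKO only without WT CD103-CD11b+ replicate 1 (-0.43, adjusted p = 0.0431), and Itgav between those of WT without WT CD103-CD11b+ replicate 2 (-0.65, 0.0232).

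Lengths mattered where genes overlap. With exon bases that no other gene shares, an alternative chosen after seeing the data, Itgam made up 1.59% and 2.88% of the CD11 chains in WT and Cbfb-cKO CD103+CD11b- DCs and 26.2% and 27.5% in CD103-CD11b+ DCs. The share of Itgad in WT CD103+CD11b- DCs was 2.77% with these lengths and 2.08% with the longest transcript. By Spearman's rho, 0 of the 5 genes most like Itgae were the same. No scaling moved the median log2 fold change of all genes by more than 0.1. Depth limits the precision for Itgam in CD103+CD11b- DCs, which rests on 14 to 45 counts a library, and for Itgad in WT CD103-CD11b+ DCs, on 16 to 47.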
